A study of Homo sapiens with 17 samples.

Results

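The genes described here encode 6 chaperones and proteases of the mitochondrial matrix: HSPD1, HSPE1, HSPA9, TRAP1, LONP1 and CLPP. They were chosen by name, as known members of the machinery that folds and degrades proteins inside mitochondria, and all 6 of 6 were found among the 14613 genes listed in the 2 deposited expression tables and passed the filter on low values in each. Expression had been measured in 17 libraries of PC3M, a prostate cancer cell line of human origin, from tags near the 3' end of each messenger RNA. The study concerns the response to misfolded proteins, and in it HSF1, the transcription factor of the heat shock response, and the oxygenase JMJD6.

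The first table held 4 groups of 2 libraries. Cells transfected for 72 hours with a non-targeting siRNA (siNT) received DMSO or MG132, a proteasome inhibitor (2.5 µM, 4 hours). Cells in which JMJD6 was targeted by siRNA (siJMJD6) and cells with a knockout (KO) of HSF1 received MG132. The labels do not name an siRNA for the KO cells, nor say whether their libraries A and B (numbered 1 and 2 here) come from separate clones. The second table held 3 groups of 3 libraries, which were siNT cells without stress (basal), siNT cells heat shocked at 42 °C for 1 hour with 2 hours of recovery, and siJMJD6 cells after the same heat shock. Neither siJMJD6 nor KO cells without stress are part of these data as analysed here, and a difference seen under stress cannot be told apart from one that was there before it. The tables were normalised separately, so levels and tests stay within a table.

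HSPD1 (HSP60) forms the barrel-shaped chaperonin in which matrix proteins fold, and HSPE1 (HSP10) is its lid. HSPA9 (mortalin) is the HSP70 of the matrix, which pulls incoming proteins through the inner membrane and helps them fold, and TRAP1 is the HSP90 of mitochondria. LONP1 and CLPP are proteases that break down damaged or unassembled matrix proteins, CLPP together with its unfolding partner CLPX. Heat shock protein genes are classic targets of HSF1, which binds heat shock elements, that is, GAA units repeated in alternating orientation with a pair of other bases between them.

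HSPD1 and HSPE1 stand head to head. In GENCODE v29 (GRCh38), HSPD1 lies on chromosome 2 at 197486581 to 197516737 on the minus strand and HSPE1 on chromosome 2 at 197499994 to 197503457 on the plus strand. HSPA9 lies on chromosome 5 at 138553756 to 138575724 (minus), TRAP1 on chromosome 16 at 3651639 to 3717597 (minus), LONP1 on chromosome 19 at 5691834 to 5720572 (minus) and CLPP on chromosome 19 at 6361452 to 6368910 (plus). RefSeq promoter windows (GRCh38.p14, 250 bases before to 50 after a start) were matched for 5 of the 6 genes, with 7 windows in all, and none was matched for CLPP. The windows were searched on both strands for a heat shock element of 3 units (GAANNTTCNNGAA or TTCNNGAANNTTC), for 1 of 4 units (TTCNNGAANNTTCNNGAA or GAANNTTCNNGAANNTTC), for a core of 2 units (GAANNTTC or TTCNNGAA) and for the E-box CACGTG. The longer heat shock motifs contain the shorter ones, and no mismatch was allowed.

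Among the 7 windows, only that of the HSPD1 start at 197499840 held a heat shock element of 3 or 4 units. It held the element of 4 units, which is shown because it lies between this start and that of HSPE1, and both genes were called lower in HSF1 KO cells. The E-boxes near the HSPE1, HSPA9 and LONP1 starts and the 2-unit core at the HSPA9 start are shown as the other matches. The E-box shown for HSPE1 also lies in the window of the HSPD1 start at 197500274, at bases -88 to -83 from it. Each stretch has 30 bases, 5′ to 3′ on the strand of its gene, with the matching bases in capitals:
HSPD1, heat shock element of 4 units, chr2:197500061-197500090 (minus): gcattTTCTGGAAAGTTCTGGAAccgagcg
HSPE1, E-box, chr2:197500345-197500374 (plus): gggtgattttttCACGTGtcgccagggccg
HSPA9, E-box and core of 2 units, chr5:138575394-138575423 (minus): cccCACGTGgttggaggtTTCCAGAAgcgc
LONP1, nearer E-box, chr19:5720178-5720207 (minus): cgcgccgggcgtCACGTGcgtttcgcggcg
LONP1, farther E-box, chr19:5720341-5720370 (minus): ctcacagccttcCACGTGaccggaaaaggc

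The element of 4 units spans 18 bases, from 228 to 245 bases before the HSPD1 start and from 294 to 311 bases before the HSPE1 start, which are 539 bases apart. This places it outside the HSPE1 window. RefSeq gives HSPD1 a second start, 105 bases from that of HSPE1, and the element lies downstream of it, outside those 105 bases. Longer annotated transcripts of each gene (HSPD1-209 and HSPE1-201 in GENCODE v29) carry the element inside a 5′ untranslated exon. Of 35116 RefSeq windows of the same length, 12 (0.0342%) held an element of 4 units, 172 (0.49%) 1 of 3 units, 13.5% a core of 2 units and 7.26% an E-box. Of the relatives of these chaperones elsewhere in the cell, described below, 17 had a window. An element of 4 units was held by 0 of the 17, and 1 of 3 units by 3 (HSP90AA1, HSP90AB1 and HSPA8). HSPA1A and HSPA1B, which fell in HSF1 KO cells, matched the core of 2 units but neither longer element. Whether the element near HSPD1 has a part in the KO result was not tested. No match in a window says only that these letters are not there, and no binding was measured in these files.

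**Figure D1:**
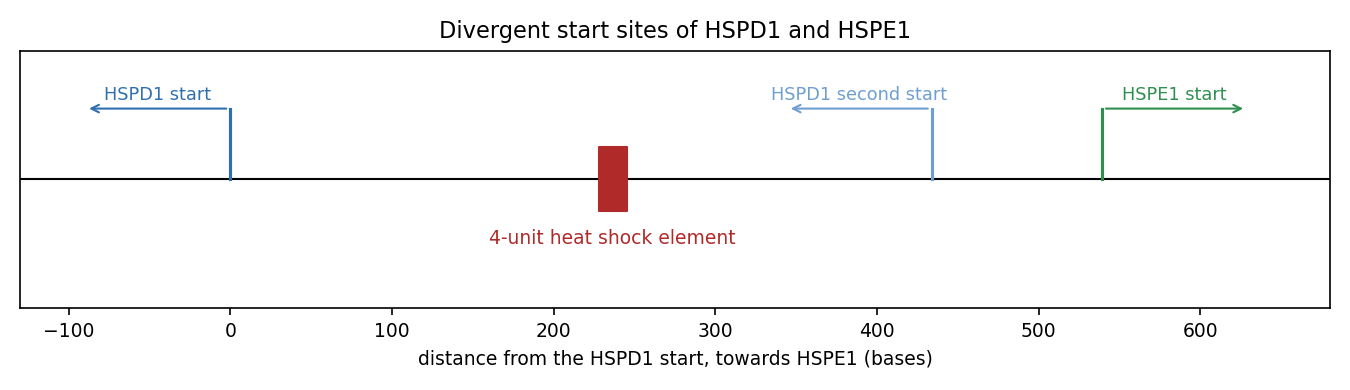
Positions of the RefSeq start sites of HSPD1 and HSPE1, in bases from the HSPD1 start towards HSPE1, with arrows in the direction of transcription. The red block marks the heat shock element of 4 units, 228 to 245 bases from the HSPD1 start and 294 to 311 bases from the HSPE1 start.

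Column totals lay between 1505826 and 1819640 normalised counts, and the steps between low values gave a depth of 1.54 to 1.85 M reads in the 8 libraries where at least 90% of those values lay within 0.1 of a whole read. In the other 9 libraries (13.5% to 74.1% of values) the depth could not be read this way. Across genes, r between replicates was 0.919 to 0.953 (MG132 table) and 0.967 to 0.977 (heat shock table) on the log2 scale, and log2 fold changes had a median standard error (SE) of 0.394 and 0.195. Whether replicates came from separate cultures is not stated in the labels, and the p-values cover only the spread among these libraries, part of which may be technical. JMJD6 had 26.6 and 16.6 normalised counts in siJMJD6 cells under MG132, against 167 and 129.8 in siNT cells, and 7.66 to 14.6 after heat shock, against 209 to 253 in siNT cells. HSF1 had 285 and 175 normalised counts in the KO libraries, where siNT cells with MG132 had 1687 and 1884, and since the tags lie at the 3' end this does not check the deletion itself. The line expressed the epithelial keratin gene KRT18 (725 to 1401 normalised counts), and 7 of 8 blood and immune markers were not listed.

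Values are normalised counts, given for each library in replicate order. Effects are log2 fold changes ± SE on the scale of log2(normalised count + 1), with p-values from limma's moderated test, adjusted by Benjamini-Hochberg over every gene tested in a comparison. The words rose and fell are kept for genes whose adjusted p was under 0.05. Since the cells were measured in bulk, fewer expressing cells and less RNA per cell cannot be told apart.

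**Figure D2:**
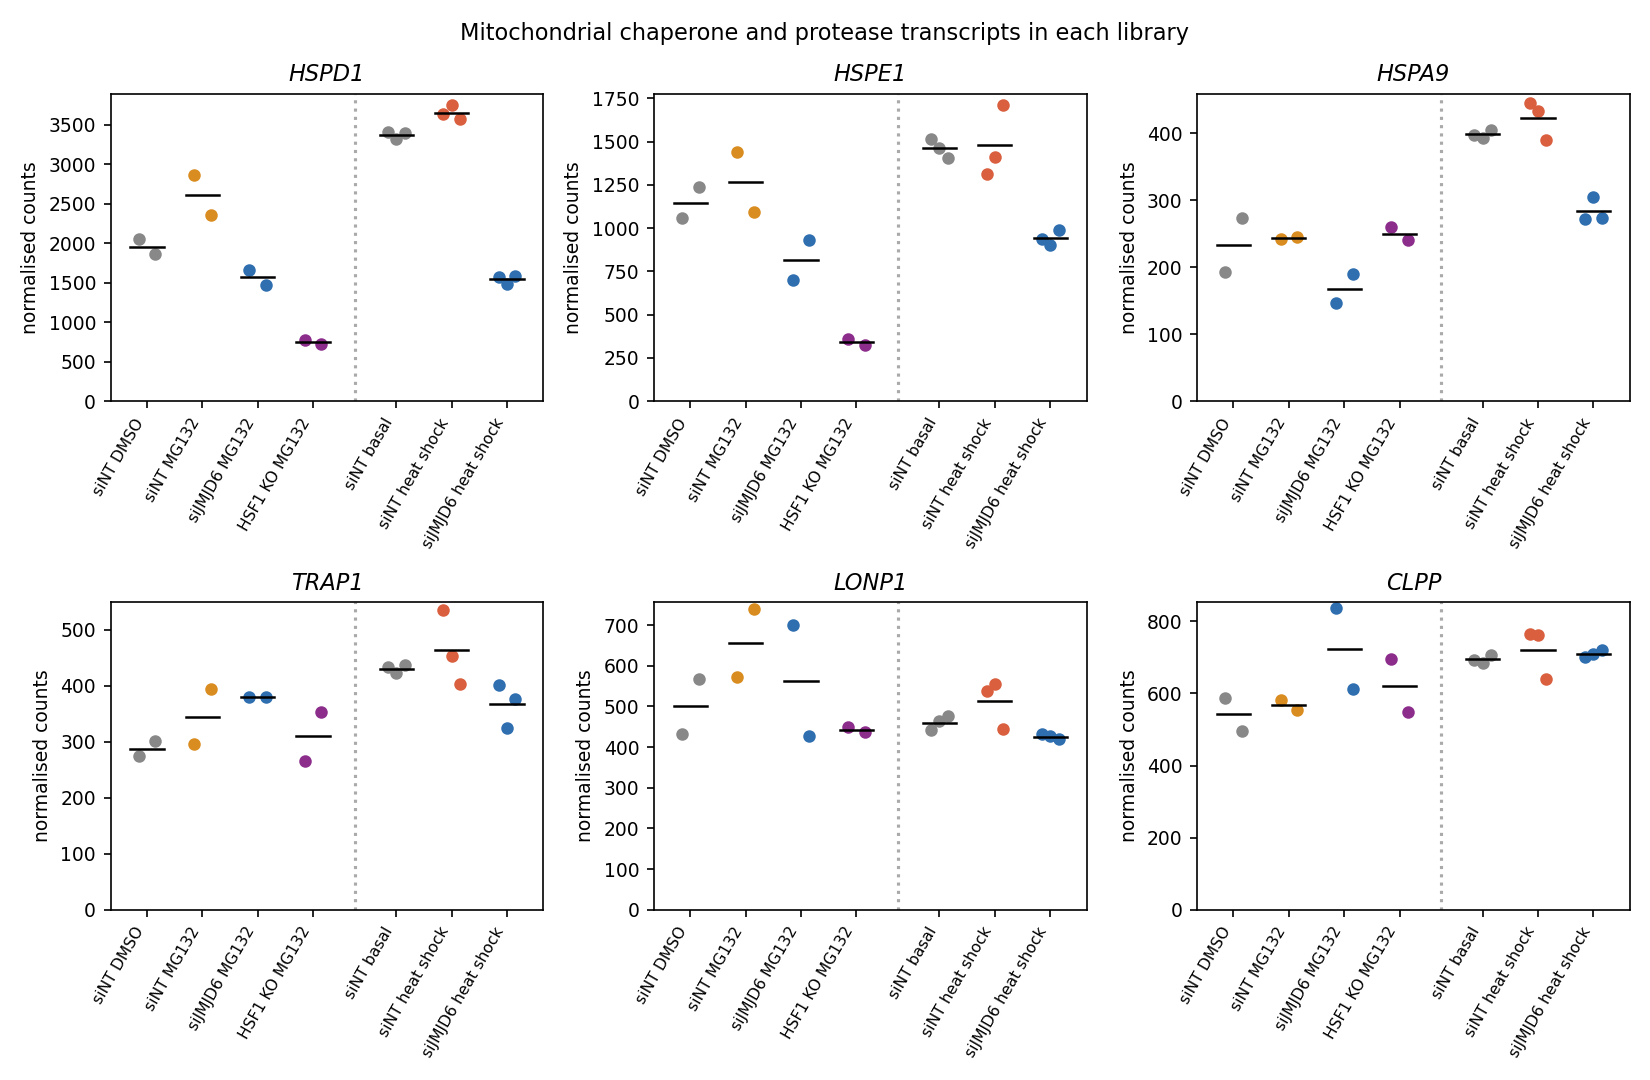
Normalised counts (vertical axes, from 0) of the 6 genes in each of the 17 libraries, grouped by condition, with black lines at group means and a dotted line between the separately normalised tables. HSPD1 and HSPE1 were lowest in the HSF1 KO libraries (723 to 779 and 323 to 358). After heat shock all genes but CLPP were lower in siJMJD6 than in siNT cells with no overlap. In that comparison the groups did not overlap, in either direction, for 54% of all tested genes.

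None of the 6 genes passed the test between MG132 and DMSO in siNT cells, and 3 of 19 relatives outside mitochondria rose. HSPD1 had 2052 and 1862 normalised counts in DMSO and 2858 and 2352 in MG132. Both MG132 libraries were above both DMSO libraries, but the difference of 0.41 ± 0.22 did not pass the test (adjusted p = 0.908). HSPE1, the lid of the same chaperonin, had 1058 and 1236 in DMSO and 1442 and 1095 in MG132, which overlap (0.14 ± 0.24, adjusted p = 0.989). HSPA9 had 193 and 274 in DMSO and 242 and 245 in MG132, an overlap as well (0.08 ± 0.26). TRAP1 had 274 and 302 in DMSO and 297 and 394 in MG132. The protease genes overlapped or nearly did: LONP1 had 433 and 567 in DMSO and 573 and 741 in MG132, and CLPP had 589 and 497 in DMSO and 583 and 554 in MG132. In all, 0 of 6 genes were called by limma, against a background of 0.266% of all 9778 tested genes (26 genes), and the groups did not overlap for 2 of the 6 and for 36.3% of all tested genes. At an unadjusted p under 0.05, 0 of the 6 and 553 of all tested genes passed. The median fold change was 0.19 for the 6 genes and -0.005 over all tested genes, and the 95% confidence interval for HSPD1, -0.06 to 0.87, does not exclude a rise.

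The relatives of these chaperones in the cytosol, nucleus and endoplasmic reticulum give the contrast in the same libraries. Of 19 such genes (HSP70, HSP110 and HSP90 genes and the subunits of TRiC, the cytosolic counterpart of HSP60), 3 rose and 0 fell, with a median of 0.47. They were HSPA1B (3.69 ± 0.30, adjusted p = 0.000115) and HSPA1A (3.53 ± 0.38, adjusted p = 0.000455), the inducible HSP70 genes, and HSP90AA1, the inducible cytosolic HSP90 (1.51 ± 0.23, adjusted p = 0.0113). The count of 3 became 2 without either DMSO or either siNT MG132 library, 1 with no filter on low values and 5 with a replicate block. HSPA1A and HSPA1B are near-identical copies, so the division of tags between them is uncertain. The 14 tested genes listed for mitochondrial stress signalling are not all specific to mitochondria, and include ATF4, TRIB3, GDF15 and the regulators NRF1 and TFAM. Of these 14 only DDIT3 (CHOP), a transcription factor of the integrated stress response, rose. It went from 90.5 ± 9.29 to 242 ± 29.4 (SD, n = 2 each), a difference of 1.41 ± 0.26 (adjusted p = 0.0383). This call was lost when any library of the siNT or KO groups was left out. None of 9 matrix chaperone partners, 15 other mitochondrial proteases, 21 import genes, 24 respiratory chain subunits and 24 mitochondrial ribosomal protein genes was called. GRPEL1, the exchange factor of HSPA9, had 0.41 ± 0.22 (adjusted p = 0.911).

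After heat shock of siNT cells, too, none of the 6 genes passed the test. HSPD1 had 3408, 3320 and 3394 normalised counts at baseline and 3638, 3742 and 3566 after heat shock. All 3 heat shock libraries were above all 3 basal libraries, by 8.12% on average, and the difference of 0.11 ± 0.07 did not pass the test (adjusted p = 0.435). HSPE1 had 1518, 1461 and 1404 at baseline and 1315, 1410 and 1709 after heat shock, which overlap (0.01 ± 0.08, adjusted p = 0.982). HSPA9 had 398, 392 and 405 at baseline and 444, 433 and 390 after it (0.08 ± 0.09), again with overlap. TRAP1 had 433, 423 and 437 at baseline and 536, 453 and 403 after heat shock, so the heat shock libraries lay on either side of the basal ones. LONP1 had 441, 464 and 476 against 537, 556 and 443, and CLPP 693, 685 and 705 against 764, 761 and 641, with the third heat shock library lowest for each. By limma 0 of 6 genes were called, against a background of 4.09% of 9831 tested genes (402 genes). The groups did not overlap for 1 of the 6 and for 19.8% of all tested genes, and at an unadjusted p under 0.05, 0 of the 6 and 1482 of all tested genes passed. The 95% confidence interval for HSPD1 was -0.02 to 0.25 and that for HSPE1 -0.16 to 0.17.

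Among the 19 relatives elsewhere in the cell, 7 rose after heat shock and 0 fell. HSPA1B rose by 1.85 ± 0.08 (adjusted p = 1.23e-18), HSPA1A by 1.495 ± 0.08, HSPH1, an HSP110 that recharges HSP70, by 1.19 ± 0.08, and HSPA5 (BiP), the HSP70 of the endoplasmic reticulum, by 1.43 ± 0.07 (adjusted p = 2.57e-18). Of 14 genes of mitochondrial stress signalling, DDIT3 rose (0.90 ± 0.12, adjusted p = 2.83e-06), while ATF4, its upstream activator, fell by 0.36 ± 0.09 (adjusted p = 0.015) and PPARGC1B, a coactivator of mitochondrial genes, fell from 19.5 to 6.87, and without basal library 1 or 2 or heat shock library 2, 1 of the 14 was called. AFG3L2, a protease of the inner membrane, was the only 1 of 16 tested mitochondrial proteases called, and fell by 0.39 ± 0.11 (adjusted p = 0.0448), a call that ended without basal library 1, 2 or 3, siNT heat shock library 1 or 2, or siJMJD6 library 2. None of 8 matrix chaperone partners, 21 import genes, 24 respiratory chain subunits and 24 mitochondrial ribosomal protein genes was called. Among the partners, PPIF, a matrix cyclophilin, came nearest (-0.26 ± 0.08, adjusted p = 0.0674).

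**Figure D3:**
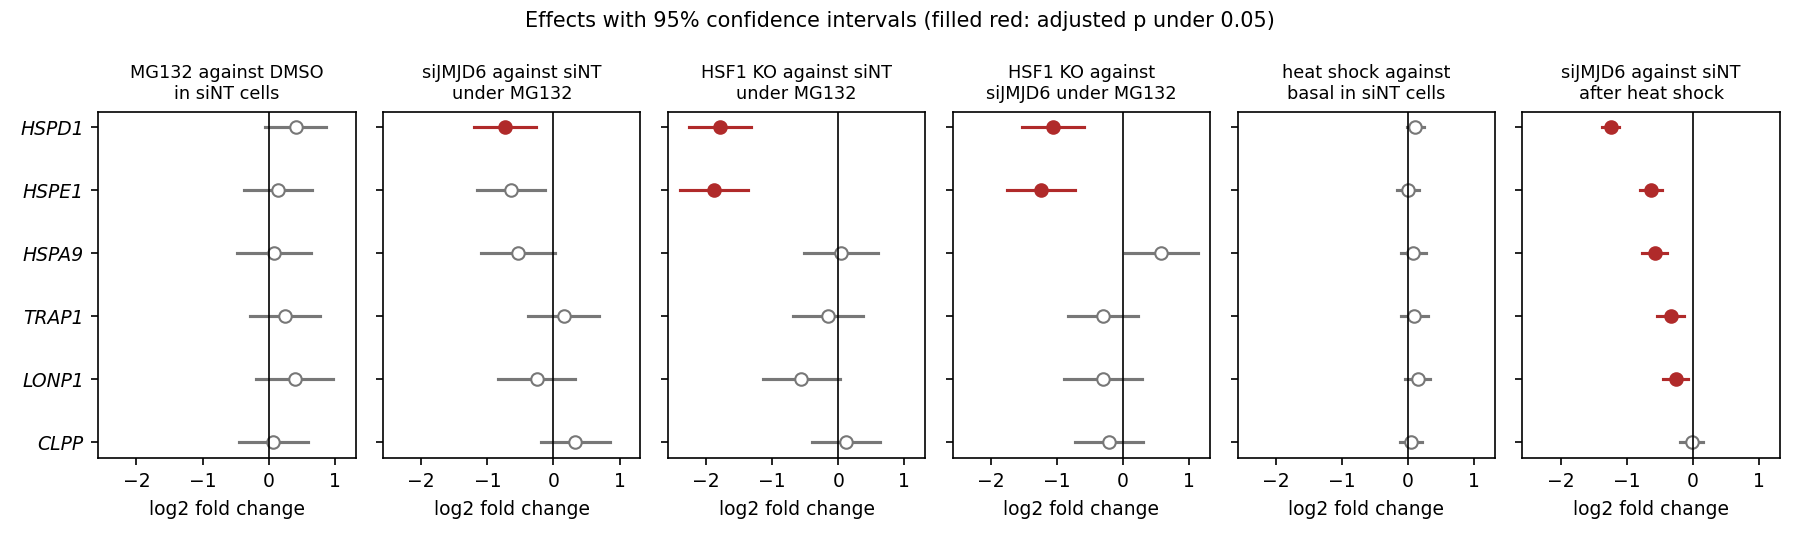
Log2 fold changes (horizontal axes) of the 6 genes in 6 comparisons, with 95% confidence intervals and filled red points where adjusted p was under 0.05. The comparisons of stress with no stress in siNT cells hold no called gene. HSPD1 and HSPE1 are called lower in both HSF1 KO comparisons, beside 1% (against siNT) and 9.69% (against siJMJD6) of all tested genes. All but CLPP are called lower in siJMJD6 cells after heat shock, beside 24.9% of all tested genes. There the TRAP1 and LONP1 calls ended when some single libraries were left out.

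HSF1 KO cells under MG132 had far less of both chaperonin transcripts than siNT cells under MG132. HSPD1 had 779 and 723 normalised counts in KO cells, against 2858 and 2352 in siNT cells, and fell by 71% on the fitted scale (-1.79 ± 0.22, adjusted p = 0.000595). HSPE1 had 358 and 323, against 1442 and 1095 (-1.88 ± 0.24, adjusted p = 0.00086). The groups did not overlap for these and LONP1, 3 of the 6 genes, as for 45.3% of all tested genes, and the p-values of HSPD1 and HSPE1 ranked 21 and 25 among all 9778 tested genes. By limma 2 of 6 genes were called lower and 0 higher, against a background of 1.28% called in either direction and 1% called lower.

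The other 4 genes did not pass the test. HSPA9 had 260 and 240 in KO and 242 and 245 in siNT cells, with a difference of 0.04 ± 0.26 (adjusted p = 0.973). TRAP1 had 266 and 353 in KO cells (-0.16 ± 0.25), and CLPP 694 and 548 (0.12 ± 0.24), each overlapping the siNT libraries. LONP1 had 449 and 436 in KO cells, below both siNT values of 573 and 741, but its difference of -0.56 ± 0.27 did not pass (adjusted p = 0.419). The 95% confidence intervals were -0.52 to 0.60 for HSPA9 and -1.14 to 0.03 for LONP1, so smaller changes were not detectable with 2 libraries a group.

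In the same comparison, 5 of the 19 relatives elsewhere in the cell fell and 0 rose, with a median of -0.62 over the 19. HSPA1A fell by 5.60 ± 0.38 (adjusted p = 4.96e-06), with HSPA1B at -5.12 ± 0.30, HSPH1 at -4.46 ± 0.33 and HSP90AA1 at -2.43 ± 0.23. None of 9 matrix chaperone partners, 15 proteases, 21 import genes, 24 respiratory chain subunits and 24 mitochondrial ribosomal protein genes was called, and their medians lay between -0.08 and 0.20. GRPEL1 had -0.47 ± 0.22 (adjusted p = 0.407). Among 14 genes of mitochondrial stress signalling, GDF15, a secreted stress cytokine, rose from 1124 ± 917 to 18950 ± 3852 (SD, n = 2 each; 4.35 ± 0.53, adjusted p = 0.000628), and with no filter on low values 0 of the 14 were called.

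The KO levels were also below those of siNT cells in DMSO. Against the DMSO values of 2052 and 1862, HSPD1 in KO cells under MG132 was lower by 61.6% (-1.38 ± 0.22, adjusted p = 0.00594), and HSPE1 was lower by 70.2% against 1058 and 1236 (-1.75 ± 0.24, adjusted p = 0.0026). By limma 2 of 6 genes were called lower, against a background of 0.931% in either direction and 0.562% lower. For 2 of the 6 genes the groups did not overlap, as for 48.6% of all tested genes. This comparison differs from the first in both genotype and treatment. HSPD1 had adjusted p = 0.115, 0.0656, 0.0671 and 0.101 without DMSO library 1, DMSO library 2, KO library 1 and KO library 2, and HSPE1 had 0.0505 without DMSO library 2 and 0.0546 without KO library 2. With no filter on low values neither passed (0.079 for HSPD1 and 0.0748 for HSPE1).

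Under MG132, siJMJD6 cells had less HSPD1 than siNT cells, but more than the KO cells. HSPD1 had 1662 and 1472 normalised counts, below the siNT values of 2858 and 2352, and fell by 39.7% (-0.73 ± 0.22, adjusted p = 0.0425). HSPE1 had 700 and 930, below 1442 and 1095 (-0.64 ± 0.24, adjusted p = 0.0961), and HSPA9 had 147 and 190, below 242 and 245 (-0.54 ± 0.26, adjusted p = 0.189). Only HSPD1 of these 3 chaperones passed the test. TRAP1 had 381 and 379, between the siNT values of 297 and 394. LONP1 had 700 and 427 and CLPP had 837 and 612, with differences of -0.25 ± 0.27 and 0.33 ± 0.24 that did not pass. By limma 1 of 6 genes was called lower, against a background of 13.6% in either direction and 7.35% lower. For 4 of the 6 genes the groups did not overlap, as for 53.1% of all tested genes. The HSPD1 call ended when DMSO library 1 or 2, siNT MG132 library 1 or 2, siJMJD6 library 2 or KO library 1 or 2 was left out, with adjusted p between 0.0677 and 0.244. Without siJMJD6 library 2, HSPE1 passed the test (-0.84, adjusted p = 0.0446).

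Here 5 of the 19 relatives elsewhere in the cell fell and 0 rose, led by HSP90AA1 (-2.90 ± 0.23, adjusted p = 1.66e-05), HSPA1B (-2.38 ± 0.30), HSPA1A (-2.47 ± 0.38) and HSP90AB1, the constitutive cytosolic HSP90 (-1.11 ± 0.22), and without siNT MG132 library 1 the count was 3. Of 9 genes listed as matrix chaperone partners, CLPB (from 13.4 to 2.05 normalised counts) and GRPEL2 (from 158 to 73.6) fell. CLPB is a disaggregase that lies outside the matrix, and GRPEL2 a second exchange factor of HSPA9. Between 0 and 1 of the 9 was called when any of the 8 libraries was left out. Of 21 import genes 2 rose and 1 fell, a share close to the 13.6% of all tested genes called in this comparison. TIMM44, which tethers HSPA9 to the import channel, fell from 166 to 82.2 (-1.01 ± 0.27, adjusted p = 0.0275). The small import subunits TIMM8B (1.89 ± 0.29) and TOMM6 (0.73 ± 0.21) rose. Fewer of the 21 were called without siNT MG132 library 1 or 2 or KO library 1 or 2. Of 14 stress signalling genes 4 fell and 1 rose: ATF4 fell by 2.17 ± 0.27 (adjusted p = 0.00042), TRIB3, an ATF4 target, by 2.87 ± 0.53 and DDIT3 by 1.11 ± 0.26, and PINK1, the kinase that marks damaged mitochondria, rose by 1.51 ± 0.31. Without either siNT MG132 library or siJMJD6 library 1, 3 of the 14 were called. Among 24 respiratory chain subunits UQCRC2 (-1.02 ± 0.25) and COX5A (-0.83 ± 0.24) fell. Among 24 mitochondrial ribosomal protein genes MRPL3 fell (-0.81 ± 0.24), and none of 15 proteases was called. Over all tested genes 7.35% were called lower. Without 1 library at a time, between 0 and 4 of the respiratory chain subunits and between 0 and 1 of the ribosomal protein genes were called.

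Compared directly with siJMJD6 cells, both under MG132, HSF1 KO cells had less HSPD1 and HSPE1. HSPD1 (779 and 723 against 1662 and 1472) was lower in KO cells by 52% (-1.06 ± 0.22, adjusted p = 0.0053), and HSPE1 (358 and 323 against 700 and 930) by 57.8% (-1.24 ± 0.24, adjusted p = 0.0037). HSPA9 had 260 and 240 in KO and 147 and 190 in siJMJD6 cells, and its difference of 0.58 ± 0.26 did not pass (adjusted p = 0.129). TRAP1, LONP1 and CLPP differed by -0.31 ± 0.25, -0.30 ± 0.27 and -0.21 ± 0.24, with none called. By limma 2 of 6 genes were called lower, against a background of 20.8% in either direction and 9.69% lower. The groups did not overlap for 4 of the 6 genes, as for 61.1% of all tested genes. Without KO library 2, HSPD1 had adjusted p = 0.0541 and 1 of 6 genes was called. Of the matrix chaperone partners GRPEL2 was higher in KO cells (1.61 ± 0.31, adjusted p = 0.0033), and GRPEL1 (-1.04 ± 0.22) and DNLZ, which keeps HSPA9 soluble, (-1.30 ± 0.30) were lower, and without KO library 1 only 1 of these partners was called. Of 14 stress signalling genes 6 were higher and 1 lower, with DDIT3 (2.19 ± 0.26) and ATF4 (2.13 ± 0.27) among the higher ones. Of the 19 relatives elsewhere in the cell 2 were higher and 4 lower, led by HSPH1 (-3.54 ± 0.33), and 3 were called without DMSO library 1, siJMJD6 library 1 or KO library 1 or 2.

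Set against siNT cells in DMSO, siJMJD6 cells under MG132 had no called gene among the 6, where the background was 13.4%. At an unadjusted p under 0.05, 0 of the 6 and 2922 of all tested genes passed limma's test. HSPD1 was at 1662 and 1472 against 2052 and 1862 in DMSO (-0.32 ± 0.22, adjusted p = 0.345), HSPE1 at 700 and 930 against 1058 and 1236 (-0.50 ± 0.24, adjusted p = 0.178), and HSPA9 at 147 and 190 against 193 and 274 (-0.46 ± 0.26, adjusted p = 0.256). TRAP1 (0.40 ± 0.25) and CLPP (0.40 ± 0.24) did not pass either. The groups did not overlap for 5 of the 6 genes, as for 57.4% of all tested genes. Across the MG132 table the order of means for HSPD1 was siNT MG132, siNT DMSO, siJMJD6 MG132 and HSF1 KO MG132, and HSPE1 had the same order. The step from siJMJD6 to KO was the only one between neighbours in that order that passed the test, for HSPD1 and for HSPE1. For HSPA9 the order was KO, siNT MG132, siNT DMSO and siJMJD6, with no step that passed. The comparisons against siNT under MG132 share the same 2 siNT libraries.

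After heat shock 5 of the 6 genes were lower in siJMJD6 than in siNT cells, and HSPD1 fell by the largest factor of the 5. HSPD1 had 1568, 1478 and 1585 normalised counts in siJMJD6 cells and 3638, 3742 and 3566 in siNT cells, and fell by 57.7% (-1.24 ± 0.07, adjusted p = 2.69e-17). HSPE1 had 939, 905 and 987 against 1315, 1410 and 1709 (-0.64 ± 0.08, adjusted p = 6.47e-08). HSPA9 had 272, 305 and 274 against 444, 433 and 390 (-0.57 ± 0.09, adjusted p = 5.26e-06). In each of these 3 genes all siJMJD6 libraries were well below all siNT libraries. TRAP1 had 402, 325 and 376 against 536, 453 and 403 (-0.33 ± 0.10, adjusted p = 0.00726), and LONP1 431, 426 and 420 against 537, 556 and 443 (-0.26 ± 0.09, adjusted p = 0.0209), with no overlap, though the nearest TRAP1 libraries of the groups almost met. CLPP had 702, 709 and 721 against 764, 761 and 641, which overlap (-0.02 ± 0.08, adjusted p = 0.877, 95% confidence interval -0.19 to 0.15).

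The background of this comparison was large: 46.4% of 9831 tested genes were called, 24.9% lower, against which 5 of 6 genes lower is read. No overlap was seen for 5 of the 6 and for 54% of all tested genes. HSPD1 stood far into that distribution, with 5.2% of tested genes at a lower fold change and a p-value ranked 25. For HSPE1 and HSPA9 18.3% and 20.6% of tested genes had a lower fold change, and for TRAP1 and LONP1 31.9% and 36.2%, so the last 2 lay within the bulk of genes called lower. TRAP1 had adjusted p = 0.0873 without siNT heat shock library 1 and 0.0752 without siJMJD6 library 2. LONP1 had adjusted p = 0.0782 and 0.138 without siNT heat shock libraries 1 and 2, 0.0638 without siJMJD6 library 3, and 0.0584 under quantile normalisation. Without siNT heat shock library 1, 3 of the 6 genes were called. The calls of HSPD1, HSPE1 and HSPA9 passed under each alternative that was run.

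Against unstressed siNT cells the same siJMJD6 libraries gave 3 of 6 genes lower, where the background was 46.3% in either direction and 24.2% lower. No overlap was seen for 5 of the 6 and for 53.5% of all tested genes. HSPD1 was lower by 54.3% (-1.13 ± 0.07, adjusted p = 3.35e-16), HSPE1 by 35.4% (-0.63 ± 0.08, adjusted p = 8.63e-08) and HSPA9 by 28.9% (-0.49 ± 0.09, adjusted p = 5.34e-05). TRAP1 lay below all basal libraries (402, 325 and 376 against 433, 423 and 437) without passing (-0.23 ± 0.10, adjusted p = 0.0564), and without siNT heat shock library 1 or 3 or siJMJD6 library 1 it passed, with adjusted p = 0.039, 0.0368 and 0.0312. LONP1 (-0.11 ± 0.09) and CLPP (0.03 ± 0.08) were not called. In the order of means HSPD1, HSPE1 and HSPA9 thus ran siNT heat shock, siNT basal and siJMJD6 heat shock, with only the lower step passing. The 2 comparisons share their siJMJD6 libraries.

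The partners of these genes included higher and lower calls in siJMJD6 cells after heat shock, where 21.4% of all tested genes were called higher and 24.9% lower. Of 8 tested matrix chaperone partners 3 rose and 0 fell: PPIF from 759 to 1037 normalised counts (0.46 ± 0.08, adjusted p = 1.98e-05), DNLZ from 88.1 to 156 (0.82 ± 0.15) and GRPEL1 from 513 to 634 (0.30 ± 0.08, adjusted p = 0.00354). So HSPA9 fell while GRPEL1 and DNLZ, the exchange factor and the solubility factor that serve it, rose. Of 21 import genes 5 rose and 4 fell, a share close to the 46.4% of all tested genes called, with TIMM44 down from 150 to 81.7 (-0.87 ± 0.15, adjusted p = 2.02e-05) and TIMM8B up from 499 to 1050 (1.07 ± 0.09, adjusted p = 7.78e-12). TOMM7 (0.48 ± 0.08) and TOMM6 (0.40 ± 0.08), small subunits of the outer membrane channel, rose as well. Of 16 other mitochondrial proteases 3 rose and 2 fell, among them PMPCB, a subunit of the presequence peptidase, which fell by 0.63 ± 0.16, and IMMP1L, an inner membrane peptidase, which rose by 0.91 ± 0.26. Without siJMJD6 library 3, 3 of these proteases were called.

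Of 24 mitochondrial ribosomal protein genes 12 fell and 2 rose, beside 24.9% lower and 21.4% higher over all tested genes. Their median was -0.35, against -0.03 over all tested genes, and the difference was not tested. The called genes were led by MRPL3 (-0.86 ± 0.10, adjusted p = 1.96e-08), MRPL37 (-0.76 ± 0.11), MRPS9 (-1.03 ± 0.15) and MRPL4 (-0.63 ± 0.10). Of 24 respiratory chain subunits 10 fell and 5 rose, led by UQCRC2 of complex III (410 to 163 normalised counts, -1.33 ± 0.10), and without siJMJD6 library 1 the number called was 8. ATP5B of the ATP synthase (-0.50 ± 0.07) and NDUFV2 of complex I (-0.63 ± 0.09) fell, and COX5B of complex IV rose (0.51 ± 0.08). Of the 19 relatives elsewhere in the cell 12 fell and 1 rose, led by HSP90AA1 (-2.41 ± 0.07, adjusted p = 6.72e-25), HSPA5 (-1.40 ± 0.07), HSP90AB1 (-0.62 ± 0.06) and the inducible HSP70 gene HSPA1B (-0.68 ± 0.08). Of 14 stress signalling genes 5 fell and 3 rose, with TRIB3 at -1.85 ± 0.14, ATF4 at -1.14 ± 0.09, GDF15 at -0.50 ± 0.07 and DDIT3 down from 299 to 150.

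**Figure D4:**
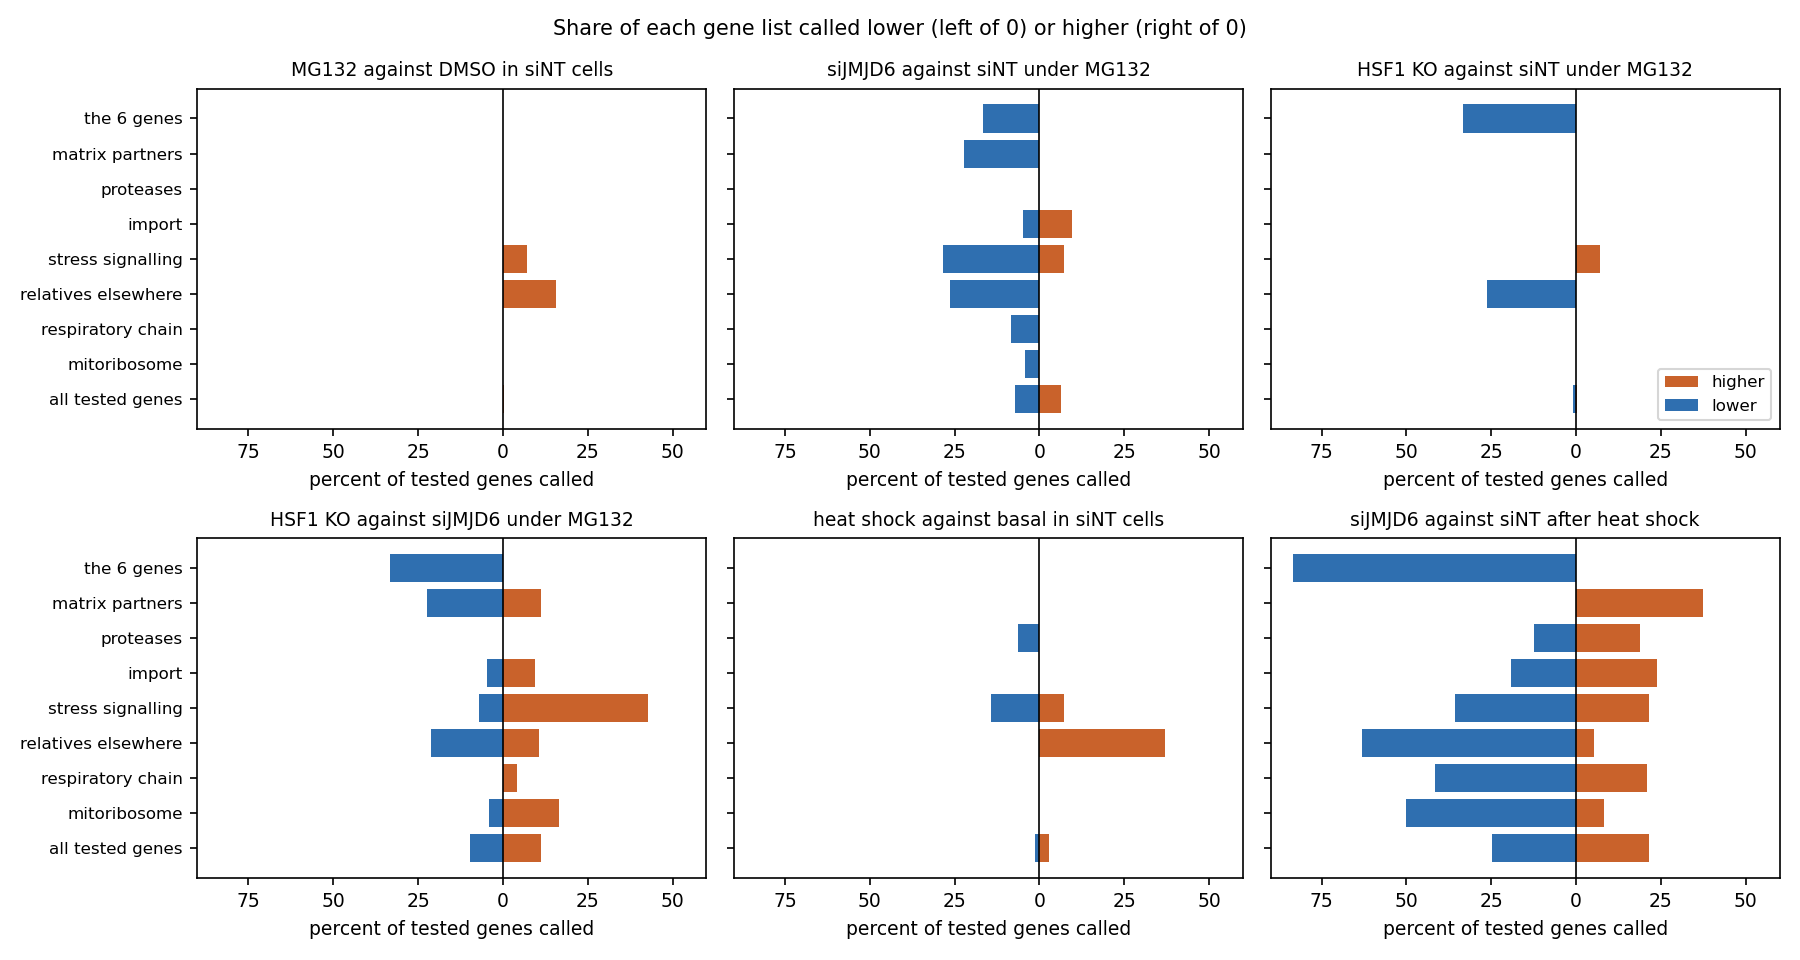
Share of the tested genes of each list called lower (blue, left of 0) or higher (orange, right of 0) in 6 comparisons, in percent. After heat shock with JMJD6 siRNA 5 of the 6 genes were lower and none higher, while 3 of 8 matrix chaperone partners were higher and none lower. Of all tested genes 24.9% were lower and 21.4% higher.

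The summed level of fibroblast markers differed between groups, but the collagen gene COL1A2 made up most of it in siNT cells under MG132. There COL1A2 had a mean of 172 normalised counts, and each other listed fibroblast marker at most 3.82. The summed level of 7 fibroblast markers was 37.4 to 57.8 normalised counts in siJMJD6 cells against 112 to 255 in siNT cells under MG132 (6 of 7 listed), and 125 to 183 against 290 to 333 after heat shock (7 of 7 listed). It was 89.7 to 101 in KO cells under MG132 and 240 to 348 in DMSO, and 375 to 399 in basal cells. In siJMJD6 against siNT cells the collagen gene COL1A2 fell (-3.00 ± 0.39 and -1.96 ± 0.14), COL1A1 rose (2.56 ± 0.78 and 0.86 ± 0.22), DCN was not listed in the MG132 table, and LUM stayed at or below 13.7. The 8 epithelial markers summed to 2527 to 2854 in siJMJD6 against 1621 to 2401 in siNT cells under MG132 (0 of 7 tested called), and to 3380 to 3603 against 2728 to 3056 after heat shock (4 of 7 higher, 0 lower). The prostate homeobox gene HOXB13 rose (1.30 ± 0.33 and 0.85 ± 0.11). The part of these differences in the results was not tested.

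HSPD1 and HSPE1 stayed close to each other across the study, but their ratio was not constant. HSPE1 per HSPD1 was 0.515 and 0.664 in DMSO, 0.504 and 0.466 in siNT cells with MG132, 0.421 and 0.632 in siJMJD6 cells under MG132 and 0.46 and 0.447 in KO cells. The KO ratios were thus inside the range of the others although each gene was lowest there. In the heat shock table the ratio was 0.445, 0.44 and 0.414 at baseline, 0.361, 0.377 and 0.479 after heat shock and 0.599, 0.613 and 0.623 in siJMJD6 cells after heat shock. The siJMJD6 ratios were above all others of that table, by 0.60 on the log2 scale against siNT heat shock cells, since HSPD1 fell more than HSPE1. A two-sided exact permutation test gave p = 0.1 for this difference and for that against basal cells, the smallest p that 3 against 3 libraries allow, and p = 0.4 for heat shock against basal cells.

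**Figure D5:**
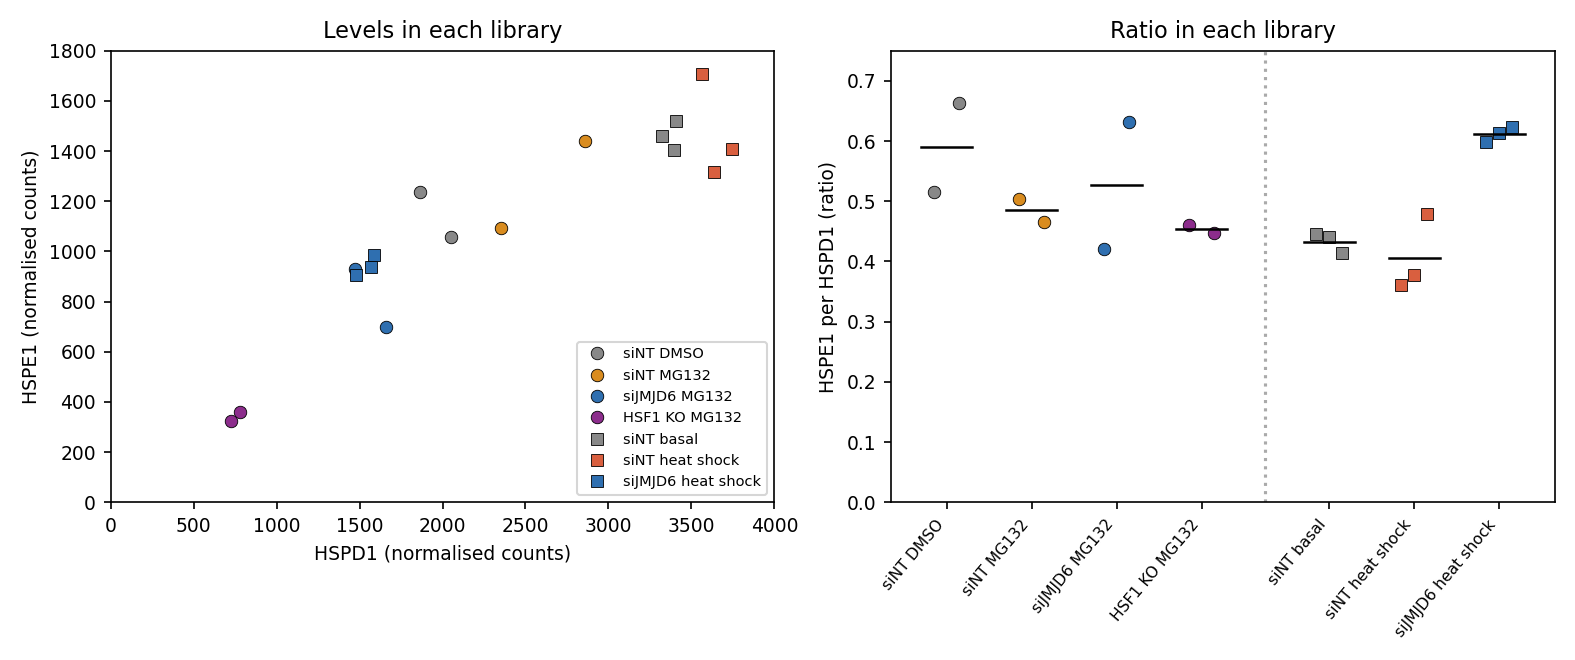
Left, HSPE1 against HSPD1 in normalised counts, with circles for the MG132 table and squares for the heat shock table. Right, the ratio HSPE1 per HSPD1 in each library with black lines at group means, where siJMJD6 cells after heat shock lie at 0.599 to 0.623, above all other libraries of their table.

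Likeness across the 17 libraries, as Pearson's r of log2 values after each table's own mean per gene was subtracted, is given as a description over points that share groups and depth. Of 4386 other genes with a mean of at least 50 in each table, those most like HSPD1 were GNAS (0.947), KDM4B (0.942) and NDRG1 (0.925), and HSPE1 ranked 6 (0.909). For HSPE1 they were RAB31 (0.941), HSPD1 at rank 2 (0.909) and COL13A1 (0.908). HSPA9 was most like CUL1 (0.95), LIN7C (0.937) and PIP4K2C (0.936), and ranked only 987 for HSPD1 (0.379) and 1280 for HSPE1 (0.212). TRAP1 was most like APLP2 (0.819), FLOT1 (0.805) and PMPCA (0.791), LONP1 most like RPL8 (0.933), RPS20 (0.905) and TPT1 (0.846), and CLPP most like MRPL43 (0.883). CLPP had an r of -0.125 with HSPD1 and -0.447 with HSPA9, so the 6 genes did not vary as a unit.

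Some values rest on tags that other loci could share. GENCODE v29 lists 17 pseudogenes of HSPD1, 26 of HSPE1 and 1 of HSPA9, of which 0 are listed in the tables, so tags that match several copies may have been left out or assigned to the parent gene. Within 500 bases of its 3' end, LONP1 shares sequence with exons of the ribosomal protein gene RPL36 on the opposite strand, and TRAP1 with exons of DNASE1 (opposite strand) and AC006111.2 (same strand). No source used here gives the strand setting of the counting, which makes these values uncertain. RPL36 had 4793 to 8042 normalised counts, ranked 3253 of 4386 in likeness to LONP1 (r = -0.16), and rose in siJMJD6 cells after heat shock (0.41 ± 0.07, adjusted p = 2.21e-05), where LONP1 fell. DNASE1 stayed at or below 17.7 normalised counts. The readthrough gene HSPE1-MOB4 was not listed.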

How the data were processed

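Tags from the QuantSeq FWD kit, which sequences the 3' ends of messenger RNA, were checked with FastQC 0.11.2, aligned to hg38 with STAR 2.6.0 and counted with HTSeq, per the submitters' processing notes. The deposited tables hold the authors' normalised signal, which are counts scaled per library, most of them not whole numbers. No source used here gives the scaling, annotation or strand setting. Low values did not resolve into whole reads in every library, and no count test was run. Genes with at least 10 normalised counts in at least 2 (MG132) or 3 (heat shock) libraries were tested (9778 of 14085 and 9831 of 13616) with limma 3.58.1 in R 4.3.3, as log2(normalised count + 1) with all groups of a table in a single fit, a moderated test with a trend, and Benjamini-Hochberg adjustment. The script was tested on simulated data. Alternatives were a pseudocount of 10, no filter, TMM scaling, quantile normalisation, the 2 groups alone, a replicate block, and leaving out each library.

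The 6 genes and the gene lists were chosen with earlier results of these data known. Named from each list were up to 4 called genes with the smallest adjusted p, or up to 2 with the smallest p where none was called, and for likeness the 3 genes with the highest r (for CLPP only the first is reported here). Genes listed under older symbols were matched through RefSeq synonyms. Promoter windows were taken from RefSeq, GRCh38.p14, and gene positions from GENCODE v29.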

Additional observations from a re-analysis of the deposited data

Results flagged for a closer look

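TRAP1 moved in opposite directions in the comparisons of stressed siJMJD6 cells with unstressed siNT cells (DMSO or basal) of the same table. It was higher in both siJMJD6 libraries under MG132 than in both DMSO libraries (log2 fold change 0.40), and lower in all 3 siJMJD6 libraries after heat shock than in all 3 basal libraries (-0.23). The difference between the tables was not tested, and neither change passed the threshold.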

How the results depend on the processing

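The limits are the group size and the unknown scaling and strand setting. With SEs of 0.217 to 0.272 for the 6 genes in the MG132 table, small changes were not detectable there. The 2 genes called lower in HSF1 KO against siNT cells under MG132 were called under all 13 alternatives. For siJMJD6 against siNT under MG132 the count of 1 became 0 with no filter on low values and 0 with the 2 groups alone, and lay between 0 and 1 with a library left out (HSPD1 adjusted p from 0.0102 to 0.244 over the alternatives). For KO against siJMJD6 cells the count of 2 lay between 1 and 2 with a library left out. For KO under MG132 against DMSO the count of 2 became 0 with no filter and lay between 0 and 2 with a library left out. For siJMJD6 under MG132 against DMSO the count of 0 became 1 under quantile normalisation, where HSPD1 passed (-0.63, adjusted p = 0.0441). For siJMJD6 against siNT after heat shock the count of 5 lay between 3 and 5 with a library left out, and against basal cells the count of 3 lay between 3 and 4. The cause was not tested. Of 756 values of single genes under the alternatives, 720 kept their direction and side of the threshold or moved by less than the spread, 24 lost the threshold, 7 passed it, 5 moved otherwise, and none of the called ones changed sign. Counts of all called genes moved more. Over the alternatives they ran from 6 to 40 for MG132 against DMSO (26 in the report's setting), from 349 to 1792 for siJMJD6 against siNT under MG132 (1327), from 29 to 210 for KO against siNT (125), from 653 to 2131 for KO against siJMJD6 (2033), from 425 to 1897 for siJMJD6 under MG132 against DMSO (1308) and from 6 to 213 for KO under MG132 against DMSO (91). TMM scaling and quantile normalisation moved the median of all genes by at most 0.076. With the replicate number as a block, which only the numbered groups allow, the counts of the 6 genes were 0 and 1 for MG132 and siJMJD6 in the first table, 0 for siJMJD6 under MG132 against DMSO, and 0, 5 and 4 in the heat shock table, where TRAP1 was the added call (adjusted p = 0.0486). Deviations of same-numbered libraries correlated at 0.368, 0.318 and 0.0447 for the group pairs of the MG132 table and at -0.0348 to 0.0943 in the heat shock table. In the MG132 table the titles of the siNT and siJMJD6 libraries share the marks X1 and X2. The labels do not say what a number marks, so a shared batch or culture is possible. Since not every correlation passed 0.1, the libraries were not treated as paired.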
